A study of Mus musculus with 186 samples.

Results

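This account describes 7 genes in which rare truncating variants have been tied to schizophrenia and which encode no receptor or channel: Setd1a, Cul1, Xpo7, Trio, Sp4, Herc1 and Rb1cc1. They were taken by name from a published set of 10 risk genes, and all 7 were found among the 28338 genes of the count matrix. The matrix holds bulk RNA-seq of 186 mouse brain libraries, 96 from mice aged 4 weeks and 90 from mice aged 12 weeks. The tissues were 2 cortical areas, prefrontal (PFC in the plots) and somatosensory (SSC), and hippocampus (HP), thalamus (TH), striatum (STR) and substantia nigra (SN). Mice were Akap11 -/- (KO in the plots), Akap11 +/- (HET) or wild type (WT). Each of the 36 groups of region, age and genotype held 5 libraries, except 6 groups at 4 weeks that held 6. The labels name no strain, sex, litter or kind of Akap11 allele, and give no treatment. They do not say that the libraries of a group came from separate animals, so the p-values measure only the spread between these libraries.

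The proteins work in different compartments of the cell. Setd1a methylates histone H3 at lysine 4 at active promoters, and Sp4 is a zinc finger transcription factor of the Sp family, enriched in neurons, that binds GC-rich promoter elements. Cul1 is the scaffold of the SCF ubiquitin ligases, Herc1 is a giant ubiquitin ligase with a HECT domain, and Rb1cc1, also called FIP200, is the scaffold of the ULK complex that starts autophagy. Xpo7 carries cargo between nucleus and cytoplasm, and Trio is a guanine nucleotide exchange factor that acts in growing axons and spines. AKAP11 itself anchors protein kinase A and is an autophagy receptor, and so has the autophagy pathway in common with Rb1cc1.

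Akap11 was the check of the genotype labels. Its transcript fell in all 12 comparisons of Akap11 -/- with wild type, by 4.30 to 3.65 on the log2 scale, which left 5.1% to 8.02% of the wild-type level. In Akap11 +/- it was at 50.1% to 61.6% of wild type and was called in 10 of 12 comparisons. A substantia nigra library labelled wild type at 4 weeks, number 92, had 43.6 CPM of Akap11 (CPM, read counts scaled to the size of the library) against 195 to 242 in the other wild-type libraries of that group. It belongs to 10 libraries at 4 weeks that stand apart in the markers of their region: 4 of substantia nigra (wild type 42 and 92, Akap11 -/- 44 and 91), 2 of thalamus (wild type 913 and 914) and 4 of striatum (wild type 92, Akap11 -/- 51, 161 and 163). The first 4 were low in dopamine neuron markers, the thalamic pair was low in thalamic markers, and the striatal libraries held cortical markers. Calls that rest on them are given with and without them, while correlations and shares of the spread include them. The libraries held about 20800000 to 73300000 counts, and CPM below are scaled by the trimmed mean of M values (TMM) over all libraries.

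The 7 genes lie on 7 chromosomes of GRCm38 (mm10). Setd1a spans chr7:127776670-127800122 on the plus strand, Cul1 chr6:47453398-47526139 on the plus strand and Herc1 chr9:66350450-66508775 on the plus strand. Trio spans chr15:27730651-28025848 and Sp4 chr12:118234933-118301440, both on the minus strand, and Rb1cc1 spans chr1:6206197-6276648 on the plus strand. Xpo7, at chr14:70654246-70766628 on the minus strand, shares its chromosome with Akap11, 7.73 Mb away. Annotated genes overlap every member but Sp4, among them Npm2 and Dok2 at Xpo7, Fbxl22 at Herc1 and Gm49388 at Setd1a. The labels and the matrix do not say whether the counting used strand, so reads of these overlapping genes may enter the members' counts.

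The 250 bases upstream of the start site are shown for the 3 genes whose level changed with age in wild type, Sp4, Trio and Herc1 (RefSeq, GRCm38.p6, written 5′ to 3′ on the gene's strand). RefSeq windows matched 5 of the 7 genes, and Xpo7 and Rb1cc1 had no entry. Capitals mark the GC box GGGCGG or its reverse complement CCGCCC, the element that Sp factors bind. The windows are chr12:118301441-118301690 for Sp4, chr15:28025849-28026098 for Trio and chr9:66350200-66350449 for Herc1.
Sp4: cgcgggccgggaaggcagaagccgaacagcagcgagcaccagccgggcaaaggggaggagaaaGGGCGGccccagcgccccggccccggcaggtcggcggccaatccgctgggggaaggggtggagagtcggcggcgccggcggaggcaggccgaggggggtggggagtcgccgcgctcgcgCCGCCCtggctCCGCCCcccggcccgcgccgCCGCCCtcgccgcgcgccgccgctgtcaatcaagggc
Trio: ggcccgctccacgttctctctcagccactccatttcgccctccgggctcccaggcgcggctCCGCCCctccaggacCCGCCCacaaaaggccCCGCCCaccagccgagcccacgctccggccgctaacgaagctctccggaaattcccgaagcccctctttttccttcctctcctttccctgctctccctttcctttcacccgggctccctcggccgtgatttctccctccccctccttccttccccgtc
Herc1: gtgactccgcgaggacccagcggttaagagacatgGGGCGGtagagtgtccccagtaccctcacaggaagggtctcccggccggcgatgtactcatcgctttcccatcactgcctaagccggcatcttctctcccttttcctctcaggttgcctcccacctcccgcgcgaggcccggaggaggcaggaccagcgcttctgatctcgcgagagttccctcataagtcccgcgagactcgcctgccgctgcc
The Sp4 window held 4 GC boxes and was 80% G or C, the Trio window held 3 at 66.8%, and the Herc1 window held 1 at 63.6%. Of the other matched genes, the Setd1a window held 0, and the Cul1 windows held 0, 3 and 1. Over all 32851 windows of the same length, 32.7% held a GC box and 8.47% held 3 or more. The CRE core TGACG, searched on both strands, was in 17.8% of all windows and in none of the 5 matched members. A match describes the letters of the window and is not a measured binding site.

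All 7 genes were expressed in every library. Per kilobase of the transcript, the median level was 39.5 CPM for Cul1, 23.4 for Xpo7, 16.8 for Trio, 16.4 for Herc1, 11.6 for Rb1cc1, 11.2 for Setd1a and 6.38 for Sp4. Sp4 was thus the least abundant and Cul1 the most abundant of the set. The ratio of the highest to the lowest group mean was 2.87 for Sp4, 2.69 for Trio, 2.12 for Herc1, 1.75 for Setd1a, 1.72 for Xpo7, 1.51 for Rb1cc1 and 1.32 for Cul1. Replicates of a group were tight by comparison, with a median coefficient of variation from 4.78% for Xpo7 to 12.2% for Sp4.

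Region accounted for most of the spread of 5 genes over the 186 libraries. It took 76.6% of the sum of squares of log2(CPM + 1) for Xpo7, 73.4% for Trio, 69.5% for Setd1a, 68% for Sp4 and 61.1% for Herc1, but 47% for Cul1 and 45.9% for Rb1cc1. Age took at most 9.86%, for Trio, and genotype with its interactions took 1.4% for Trio to 7.43% for Cul1. For Akap11 the genotype terms took 96.3%. The shares are a description of these libraries and carry no test.

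**Figure D1:**
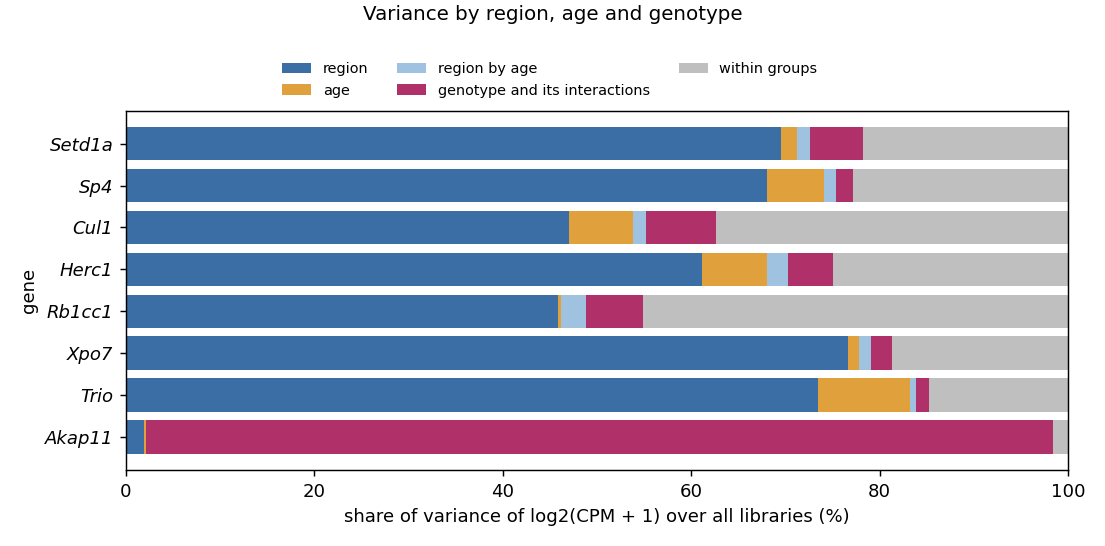
Stacked bars give the share of the sum of squares of log2(CPM + 1) over 186 libraries, in percent, that region, age, region by age, genotype with its interactions, and the spread within groups took for each gene. Region took 45.9% to 76.6% for the 7 genes, and genotype took 96.3% for Akap11.

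In wild-type brain, the regional pattern split the set. Setd1a, Xpo7 and Sp4 were highest in striatum and low in thalamus and substantia nigra. Trio and Herc1 were lowest in substantia nigra, and Cul1 and Rb1cc1 had the smallest ratios between regions. Each region was compared with the mean of the other 5 by edgeR's quasi-likelihood test, with Benjamini-Hochberg adjustment over all genes. Of 84 such comparisons, 35 were called at an adjusted p under 0.05, 18 higher and 17 lower, where 54.0% of all genes' comparisons were called (27.8% higher, 26.2% lower). The median absolute log2 change of the members was 0.15, against 0.32 over all genes tested. At 4 weeks 13 of 42 were called, and 25 without the libraries that stand apart, with all 13 kept. At 12 weeks 22 of 42 were called, 12 higher and 10 lower. The 54.0% pools both ages with all libraries in the fit, so the 25 has no share over all genes beside it.

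**Figure D2:**
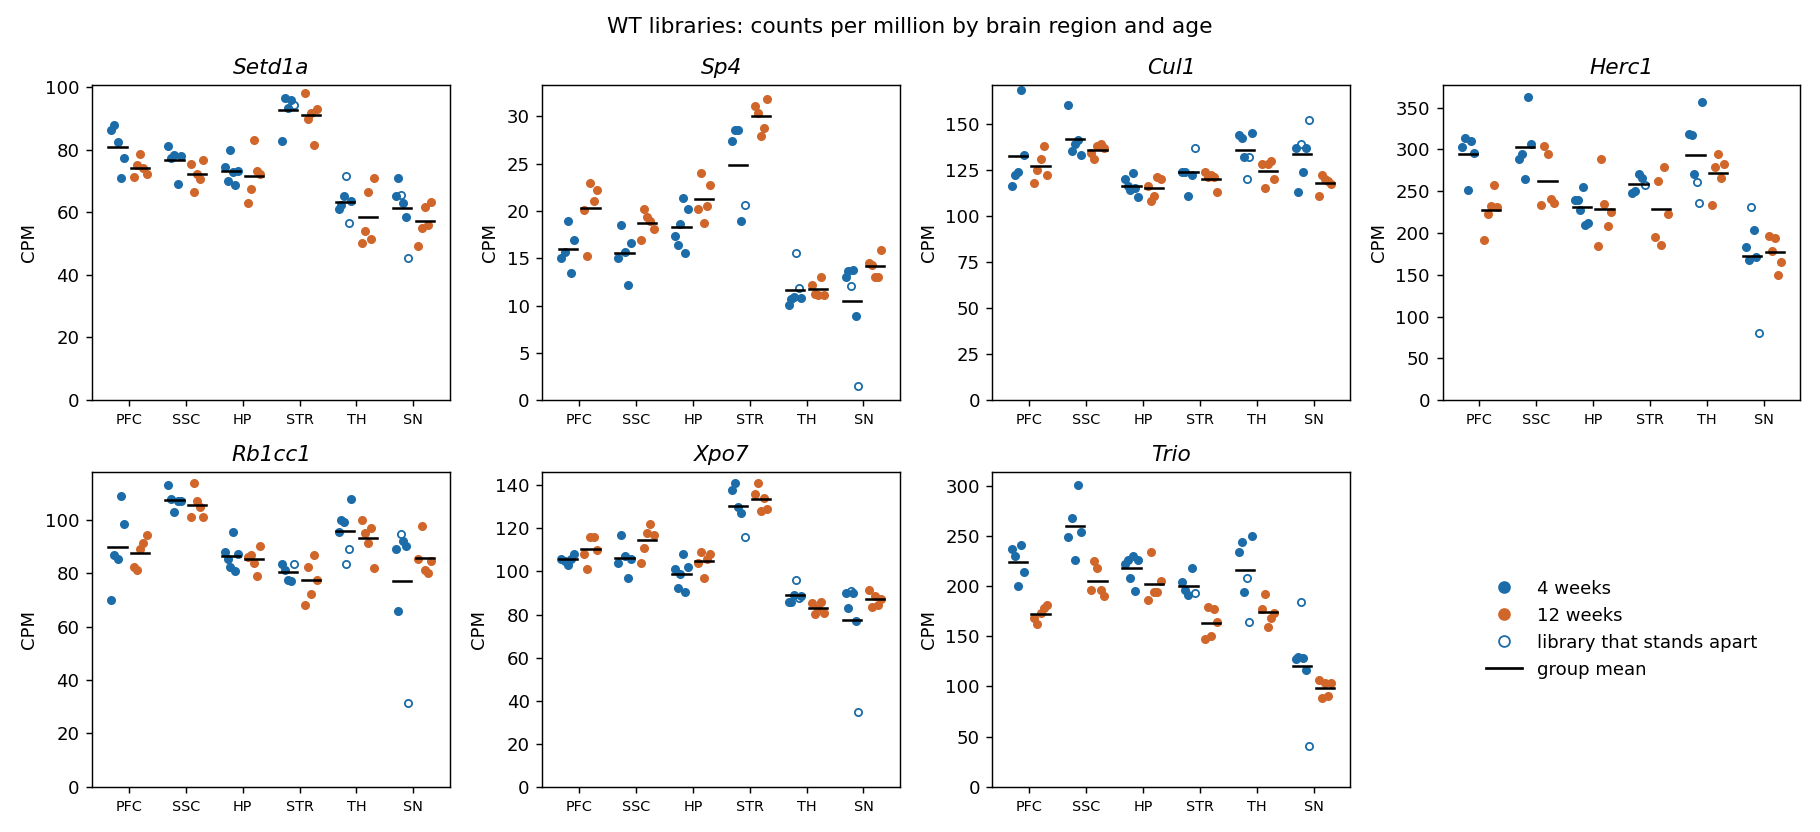
Points are wild-type libraries, with TMM-scaled CPM on the y axis by region, blue at 4 weeks and orange at 12 weeks, open where the library stands apart in its markers, and black lines are group means. Striatum is the highest region for Setd1a, Xpo7 and Sp4 (Sp4 mean 30.0 CPM at 12 weeks), and substantia nigra the lowest for Trio (98.2 CPM at 12 weeks).

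Setd1a, the histone methyltransferase, was highest in striatum. At 12 weeks the striatal wild-type libraries held 81.6, 89.9, 91.8, 93.1 and 98.0 CPM, against 50.3, 51.3, 54.0, 66.3 and 70.9 in thalamus and 49.3, 55.1, 56.0, 61.7 and 63.3 in substantia nigra. Every striatal library lay above every thalamic and nigral one, while the thalamic and nigral groups overlapped; 38.9% of all genes had a striatal group apart from both in the same way, in either direction. Against the mean of the other regions, the striatal log2 change was 0.42 ± 0.07 (SE) at 4 weeks (adjusted p = 5.29e-06) and 0.46 ± 0.06 at 12 weeks (adjusted p = 2.72e-07). Thalamus was lower by a log2 change of -0.26 ± 0.07 and -0.30 ± 0.07, and substantia nigra by -0.34 ± 0.07 and -0.33 ± 0.07, and all 4 were called. Prefrontal cortex (74.2 CPM at 12 weeks), somatosensory cortex (72.3) and hippocampus (71.7) lay between them and overlapped one another.

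Sp4, the neuronal Sp factor, had the steepest striatal peak. At 12 weeks it was at 27.9, 28.8, 30.4, 31.1 and 31.8 CPM in striatum, 11.1, 11.1, 11.2, 12.2 and 13.0 in thalamus, and 13.0, 13.0, 14.3, 14.5 and 15.9 in substantia nigra. No library of another region reached the lowest striatal one, and 13.7% of all genes had a striatal group that did not overlap any other at this age. The striatal change was 0.84 ± 0.20 at 4 weeks (adjusted p = 0.000798) and 0.84 ± 0.06 at 12 weeks (adjusted p = 1.23e-12). Thalamus was lower by a log2 change of -0.78 ± 0.07 at 12 weeks. At 4 weeks the thalamic change was -0.48 (adjusted p = 0.0585), and -0.68 (adjusted p = 9.97e-06) without the libraries that stand apart. Substantia nigra was lower at both ages, by -0.69 ± 0.21 and -0.45 ± 0.07; the value at 4 weeks was -0.45 without wild-type library 92. Hippocampus was higher at 12 weeks, with a change of 0.23 (adjusted p = 0.00391).

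Xpo7, the nuclear transport receptor, was likewise highest in striatum and low in thalamus and substantia nigra. At 12 weeks the striatal libraries held 128, 129, 134, 136 and 141 CPM, the thalamic ones 80.3, 80.7, 83.0, 85.4 and 85.8, and the nigral ones 83.7, 84.6, 87.1, 88.7 and 91.2. The striatal libraries did not overlap any other region at this age, as for 13.7% of all genes in either direction. The striatal change was 0.48 ± 0.10 at 4 weeks (adjusted p = 0.000258) and 0.43 ± 0.04 at 12 weeks (adjusted p = 7.15e-12). Substantia nigra was lower by -0.46 ± 0.10 and -0.29 ± 0.04, and the value at 4 weeks was -0.28 without library 92. Thalamus was lower at 12 weeks, by -0.38 ± 0.04 (adjusted p = 4.33e-10). At 4 weeks the thalamic change was -0.19 (adjusted p = 0.124). It was called without library 92 of substantia nigra (-0.23, adjusted p = 2.7e-05), without the libraries that stand apart (-0.26, adjusted p = 3.35e-05) and with all 3 genotypes in the fit (-0.21, adjusted p = 0.00664). Somatosensory cortex was above the mean at 12 weeks by 0.14 (adjusted p = 0.00132). The prefrontal change of 0.09 at 12 weeks (adjusted p = 0.0397) lost its call in 21 of 35 alternative settings.

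Trio, the exchange factor, was set apart by its low level in substantia nigra. At 12 weeks the nigral libraries held 88.3, 90.8, 103, 103 and 106 CPM, while the regional means elsewhere ran from 163 in striatum to 205 in somatosensory cortex. The nigral libraries did not overlap any other region, as for 11.3% of all genes. The nigral change was -0.90 ± 0.15 at 4 weeks (adjusted p = 7.41e-06) and -0.87 ± 0.06 at 12 weeks (adjusted p = 7.51e-14). Somatosensory cortex was higher at both ages, by 0.44 ± 0.15 and 0.36 ± 0.05, and hippocampus at 12 weeks by 0.35 ± 0.05 (adjusted p = 1.58e-06). The call in somatosensory cortex at 4 weeks (adjusted p = 0.0156) was lost without wild-type library 914, at 0.39 and an adjusted p of 0.0673.

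Herc1, the HECT ubiquitin ligase, was also lowest in substantia nigra. Its 12-week levels there were 150, 165, 179, 194 and 196 CPM, against 233, 266, 279, 283 and 295 in thalamus, its highest region at that age. The nigral libraries were all below the thalamic ones, and for 40.0% of all genes these regions did not overlap, in either direction. The nigral change was -0.69 ± 0.12 at 4 weeks (adjusted p = 1.57e-05) and -0.43 ± 0.09 at 12 weeks (adjusted p = 0.000154). Thalamus was higher at 12 weeks by 0.29 ± 0.09 (adjusted p = 0.00409), with 0.25 at 4 weeks (adjusted p = 0.0624). The value at 4 weeks was called without the libraries that stand apart (0.34, adjusted p = 0.000293), without library 92 of substantia nigra (0.22, adjusted p = 0.0104), without library 914 of somatosensory cortex (0.27, adjusted p = 0.0481) and with all 3 genotypes in the fit (0.24, adjusted p = 0.0139). Somatosensory cortex was called higher at both ages, 0.31 and 0.20, with adjusted p of 0.0431 and 0.0492, and lost the call in 8 of 39 and 20 of 35 alternative settings.

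Cul1, the SCF scaffold, varied least. Its 12-week levels were 131, 134, 137, 138 and 139 CPM in somatosensory cortex and 108, 111, 116, 120 and 121 in hippocampus, the highest and lowest regions. These groups did not overlap, as for 39.2% of all genes in either direction, and their means were 136 and 115 CPM. Hippocampus was lower at both ages, with changes of -0.20 ± 0.06 (adjusted p = 0.0131) and -0.12 ± 0.04 (adjusted p = 0.00466), and somatosensory cortex was higher at 12 weeks by 0.15 ± 0.03 (adjusted p = 0.000421).

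Rb1cc1, the autophagy scaffold, was highest in somatosensory cortex and lowest in striatum at 12 weeks. It was at 101, 101, 105, 107 and 114 CPM in somatosensory cortex and at 68.3, 72.1, 77.6, 82.3 and 86.8 in striatum. The somatosensory libraries lay above all other regions, as for 3.59% of all genes. The somatosensory change was 0.28 ± 0.05 (adjusted p = 1.63e-05) and the striatal change -0.24 ± 0.05 (adjusted p = 0.00019). At 4 weeks the somatosensory change was 0.33 ± 0.12 (adjusted p = 0.0372), a call that was lost without any of wild-type libraries 142, 23, 914 or 92 of that region. The striatal change at 4 weeks was -0.14 (adjusted p = 0.361), and -0.22 (adjusted p = 0.0159) without the libraries that stand apart.

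The 13 regional calls at 4 weeks were all kept without the libraries that stand apart. Without them the striatal changes were 0.37 for Setd1a, 0.48 for Xpo7 and 0.86 for Sp4. The nigral changes were -0.25 for Setd1a, -0.31 for Xpo7, -0.43 for Sp4, -0.86 for Trio and -0.62 for Herc1. All 8 were called in that fit. Beside the thalamic calls of Sp4, Xpo7 and Herc1 and the striatal call of Rb1cc1 given above, 8 more were called in that fit and not with all libraries. They were Setd1a (0.15), Trio (0.17) and Herc1 (0.23) in prefrontal cortex, Cul1 in somatosensory cortex (0.15), Sp4 (0.24) and Herc1 (-0.21) in hippocampus, and Trio (0.20) and Rb1cc1 (0.18) in thalamus.

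Some members shared a pattern over the 36 groups. Pearson's r of the group means of log2(CPM + 1) was 0.93 for Xpo7 and Sp4, 0.88 for Setd1a and Xpo7, 0.81 for Setd1a and Sp4, and 0.87 for Trio and Herc1. Cul1 and Rb1cc1 had an r of 0.73, and Setd1a and Cul1 of -0.09. After the group means were subtracted, r over the 186 libraries was 0.82 for Xpo7 and Sp4 and 0.75 for Trio and Herc1, but 0.24 for Setd1a and Xpo7. High values within groups were not particular to those pairs. Every pair among Xpo7, Trio, Sp4, Herc1 and Rb1cc1 had an r from 0.42 to 0.82 there. Pairs with Setd1a or Cul1 ran from -0.21 to 0.26. Xpo7 and Rb1cc1 had an r of -0.02 over groups and of 0.71 within them. The r within groups includes nigral wild-type library 92 at 4 weeks, low in Sp4 (1.45 CPM), Xpo7 (34.9) and Trio (40.6). It was not computed without that library. The points share libraries, regions and scaling, so these values are descriptions. The pattern of Setd1a, Xpo7 and Sp4 ran with the markers of cell types: r over the 36 groups with the striatal neuron marker score was 0.69 for Setd1a, 0.75 for Xpo7 and 0.76 for Sp4, and with the endothelial score -0.80, -0.79 and -0.81. Within groups, over the 186 libraries, r with the striatal score was -0.07, 0.04 and 0.04, and with the endothelial score -0.34, -0.30 and -0.24. Of the 11 scores, the r of largest size within groups was with microglia for Setd1a (-0.36). For Xpo7 and Sp4 it was with oligodendrocytes (-0.42 and -0.45). Trio and Herc1 had r of -0.90 and -0.78 with the dopamine neuron score over groups, and of -0.04 and 0.06 within them. The part of cell composition in the regional differences was not tested, and in bulk tissue fewer cells of a type and less RNA per cell cannot be told apart.

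For each member, the genes with the most similar pattern over the 36 groups were found by the same correlation among 14088 genes with a mean of at least 1 CPM. They were Rfx1 (0.967), Krba1 (0.960) and Setd4 (0.959) for Setd1a, Rbm26 (0.965), Zfp141 (0.965) and Zfp329 (0.964) for Sp4, and Rragd (0.969), Angel2 (0.969) and Asb11 (0.968) for Xpo7. Trio was most like Ptprj (0.980), Trim9 (0.950) and Bop1 (0.942), and Herc1 most like Mycn (0.930), Uhrf1bp1l (0.925) and Adgrb1 (0.919). Cul1 had Eef1a2 (0.938), Gpat4 (0.923) and Atxn7l3 (0.913), and Rb1cc1 had Scyl2 (0.916), Slc23a2 (0.910) and Pdik1l (0.900). No member was among the 3 genes most like another.

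With age, 3 of the 7 genes changed. Trio fell from 4 to 12 weeks in 4 of 6 regions, Herc1 fell in prefrontal cortex, and Sp4 rose in somatosensory cortex. These were 6 calls of 42 comparisons within wild type, 1 higher and 5 lower, where 20.6% of all genes' comparisons were called (9.21% higher, 11.4% lower). DESeq2 also called 6. The libraries of the 2 ages carry different numbers, and age and processing batch cannot be told apart. Setd1a, Cul1, Xpo7 and Rb1cc1 had no call in any region with all libraries in the fit. With 1 library left out, Setd1a was called in prefrontal cortex (-0.16, adjusted p = 0.0206, without 4-week library 914). Xpo7 was called in somatosensory cortex (0.14, adjusted p = 0.0382 without 4-week library 23 and 0.0379 without 12-week library 1), and Cul1 in substantia nigra (-0.23, adjusted p = 0.0247, without 4-week library 23).

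Trio had its clearest change in cortex. In prefrontal cortex it was at 200, 214, 230, 237 and 241 CPM at 4 weeks and 162, 168, 173, 178 and 181 at 12 weeks. In somatosensory cortex the levels were 226, 249, 254, 268 and 301 against 190, 196, 196, 218 and 225, and in striatum 191, 193, 196, 204 and 218 against 147, 150, 164, 177 and 179. In all 3 regions every 12-week library was below every 4-week library, as for 12.0%, 17.4% and 11.5% of all genes. The log2 change was -0.37 ± 0.07 in prefrontal cortex (adjusted p = 0.000357), -0.34 ± 0.08 in somatosensory cortex (adjusted p = 0.00192) and -0.27 ± 0.06 in striatum (adjusted p = 0.00171). Thalamus fell by 0.30 ± 0.09 on the log2 scale (adjusted p = 0.0241), from a lowest, median and highest of 164, 221 and 250 CPM to 159, 168, 173, 177 and 192, with overlap. That call was lost in a fit of wild type alone (adjusted p = 0.0832) and without any of thalamic wild-type libraries 23 and 92 at 4 weeks and 3 and 4 at 12 weeks (adjusted p 0.0501 to 0.0769). Hippocampus had a change of -0.11 (adjusted p = 0.327). Substantia nigra had -0.29 ± 0.18 (adjusted p = 0.262), and -0.46 (adjusted p = 0.000896) without wild-type library 92, whose Trio level of 40.6 CPM was the lowest of all 186 libraries. Without the libraries that stand apart, the change was -0.34 in substantia nigra (adjusted p = 0.00107) and -0.38 in thalamus (adjusted p = 0.00456), and both were called. In striatum it was -0.29 in that fit (adjusted p = 0.00206), and the call was kept.

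Herc1 fell in prefrontal cortex, from 252, 296, 303, 310 and 314 CPM to 191, 223, 231, 232 and 258. The groups overlapped by a single library on each side, and the log2 change was -0.36 ± 0.08 (adjusted p = 0.00262). In somatosensory cortex it was -0.21 (adjusted p = 0.152). Sp4 rose in somatosensory cortex, from 12.2, 15.0, 15.7, 16.6 and 18.5 CPM to 16.9, 18.1, 18.9, 19.4 and 20.2. Again the groups overlapped, and the change was 0.26 ± 0.09 (adjusted p = 0.0273). The Sp4 call was lost in wild type alone (adjusted p = 0.0647) and without library 914 at 4 weeks (0.11) or libraries 2 or 3 at 12 weeks (0.0763 and 0.0546). Without the 16 libraries with few whole values, the change was 0.15 (adjusted p = 0.233). Other regions gave Sp4 changes from 0.01 in thalamus to 0.44 in substantia nigra, of which prefrontal cortex (0.36 ± 0.13, adjusted p = 0.0585) and striatum (0.29 ± 0.11, adjusted p = 0.0676) came nearest to a call.

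**Figure D3:**
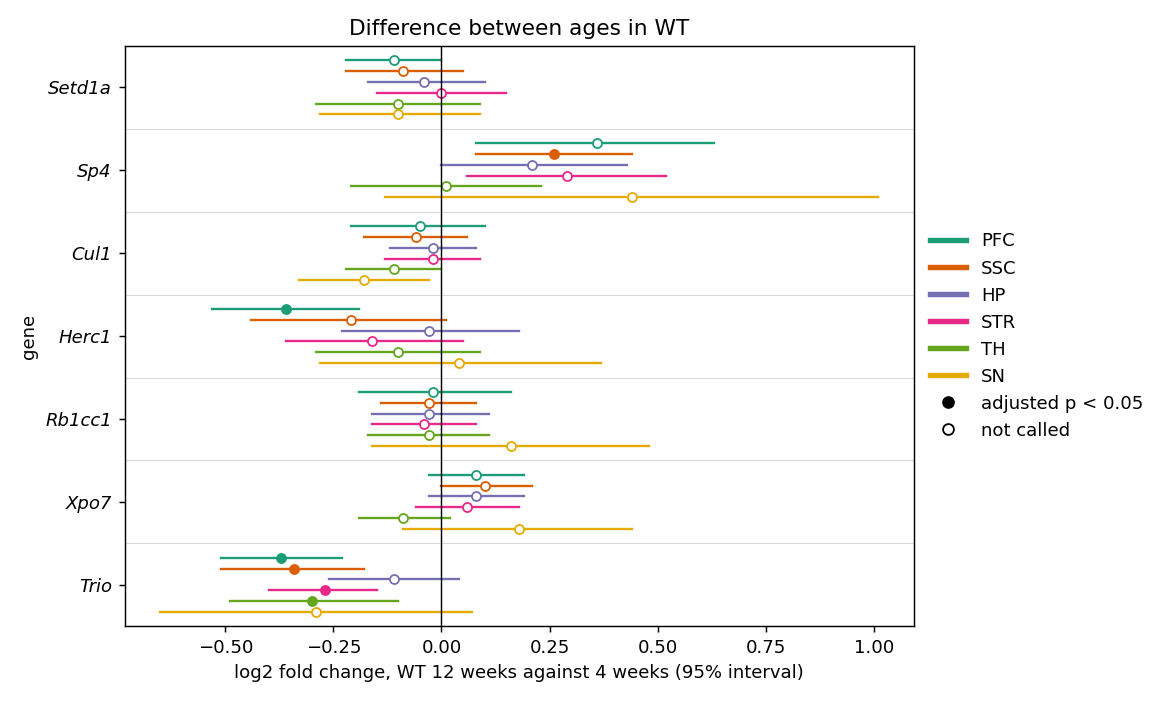
The log2 change from 4 to 12 weeks in wild type is shown for each gene and region, with 95% intervals, and filled points mark an adjusted p under 0.05. Trio lies below 0 in all 6 regions, from -0.11 to -0.37, and Sp4 lies above 0, from 0.01 to 0.44.

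Loss of Akap11 changed none of the 7 genes past the threshold in any region or age. Of 84 comparisons of Akap11 -/- with wild type, 0 were called, where 0.644% of all genes' comparisons were called. At an unadjusted p under 0.05 there were 7, and DESeq2 called 0 as well, with 7 at an unadjusted p under 0.05. The log2 changes ran from -0.22 to 0.28, with 40 above 0 and 44 below. Their median absolute size was 0.05, against 0.09 over all genes tested. The 95% interval lay within 0.5 of 0 on the log2 scale in 82 of the 84 comparisons, and in 79 the change was under 0.2. The widest interval was that of Sp4 in substantia nigra at 4 weeks, from -0.64 to 0.87. The smallest adjusted p was 0.121. In no comparison did the Akap11 -/- libraries of a member lie wholly outside the wild-type ones, as 1.53% of all genes' comparisons did.

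Each gene stayed in a narrow range over the 12 comparisons. The chromatin and transcription genes ran from -0.22 to 0.10 (Setd1a) and -0.13 to 0.28 (Sp4), and the ubiquitin ligase genes from -0.14 to 0.08 (Cul1) and -0.22 to 0.24 (Herc1). Rb1cc1, the autophagy gene, ran from -0.13 to 0.07, Xpo7 from -0.11 to 0.07 and Trio from -0.20 to 0.10. Herc1 had values of both signs, with -0.22 in prefrontal cortex (adjusted p = 0.241), 0.24 in hippocampus (adjusted p = 0.725) and 0.22 in thalamus (adjusted p = 0.306), all at 4 weeks and none called. The thalamic value was 0.12 without the libraries that stand apart. Sp4 in prefrontal cortex at 4 weeks was at 15.7, 18.9, 19.8, 20.6 and 21.8 CPM in Akap11 -/- and at 13.4, 15.0, 15.7, 16.9 and 18.9 in wild type. These groups overlapped, and the change of 0.28 ± 0.10 had an adjusted p of 0.236.

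**Figure D4:**
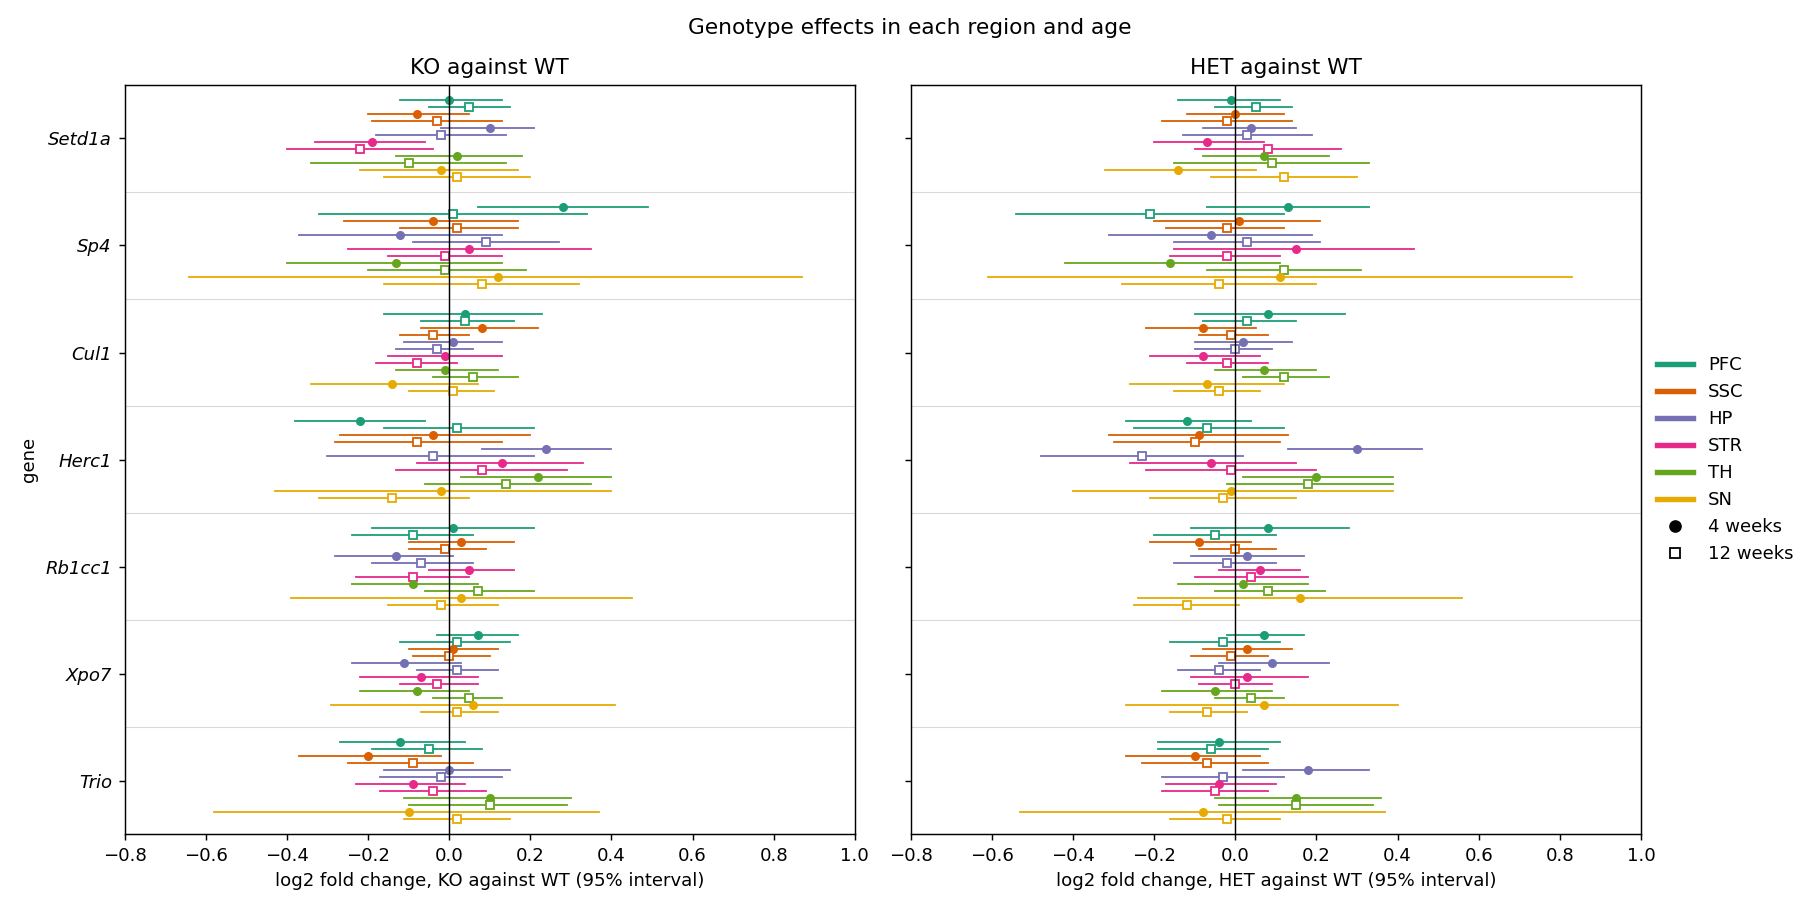
Log2 changes against wild type with 95% intervals are shown for each gene in 12 combinations of region and age, Akap11 -/- and Akap11 +/- in separate panels and colours for regions, with filled circles at 4 weeks and open squares at 12 weeks. The values lie between -0.22 and 0.28 for Akap11 -/- and between -0.23 and 0.30 for Akap11 +/-, and none was called.

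In Akap11 +/-, which was compared with the same wild-type libraries, 0 of 84 comparisons were called, where 0.00521% of all genes' comparisons were. At an unadjusted p under 0.05 there were 4. DESeq2 called 1, Herc1 in hippocampus at 4 weeks. There the Akap11 +/- libraries held 263, 271, 273, 299 and 311 CPM, and wild type had a lowest, median and highest of 210, 234 and 255. The groups did not overlap, as for 0.505% of all genes' comparisons, and Akap11 -/- ran from 242 to 317 CPM, overlapping both. The change was 0.30 ± 0.08 with a 95% interval from 0.13 to 0.46, an adjusted p of 0.59 by edgeR and of 0.0462 by DESeq2. Cul1 in thalamus at 12 weeks was the other member whose groups did not overlap, at 131, 131, 137, 138 and 142 CPM against 115, 120, 128, 128 and 130 (0.12 ± 0.05, adjusted p = 0.477). The median absolute change was 0.06, against 0.08 over all genes, and 80 of 84 intervals lay within 0.5 of 0.

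Averaging the 6 regions narrowed the intervals and gave no call. The intervals are from edgeR fits that took libraries of the same number in different regions as independent, and the narrowing rests on that. Same-numbered wild-type libraries of 2 regions had deviations from their group means correlated over 0.1 in 31 of 76 pairs at 4 weeks. At 12 weeks it was 53 of 75 pairs. Intervals of the fit with the block are not given. For Akap11 -/-, 0 of 14 mean effects were called (background 1.57%; 0 at an unadjusted p under 0.05), and DESeq2 and limma voom with the library number as a block also called 0. The means ran from -0.07 for Trio at 4 weeks to 0.05 for Herc1 at 4 weeks, with intervals from -0.17 to 0.18. For Akap11 +/-, 0 of 14 were called (background 0.0621%; 0 at an unadjusted p under 0.05, and 0 by DESeq2 and by limma voom), with means from -0.04 to 0.06 and intervals from -0.13 to 0.18. The difference of the Akap11 -/- effect between 12 and 4 weeks gave 0 calls of 42 (background 0%; 1 at an unadjusted p under 0.05, and 0 called by DESeq2), with values from -0.28 to 0.25. Each of these counts was also 0 without the libraries that stand apart.

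Setd1a in striatum was the member nearest to a call in Akap11 -/-. At 4 weeks the Akap11 -/- libraries held 72.6, 78.8, 84.2, 84.4 and 85.8 CPM and the wild-type ones 82.8, 93.2, 94.3, 95.8 and 96.4. Wild-type library 142, at 82.8, was the only one to reach into the Akap11 -/- range. The log2 change was -0.19 ± 0.06, with a 95% interval from -0.33 to -0.06 and an adjusted p of 0.121. At 12 weeks the levels were 70.0, 71.5, 81.5, 83.8 and 84.5 CPM against 81.6, 89.9, 91.8, 93.1 and 98.0, again with 1 wild-type library inside the other range. The change was -0.22 ± 0.08, from -0.40 to -0.04, with an adjusted p of 0.183. In the striatum, 3.35% of all genes were called at 4 weeks and 4.42% at 12 weeks. Akap11 +/- libraries ran from 82.2 to 96.8 CPM at 4 weeks and from 80.5 to 112 at 12 weeks, with changes of -0.07 and 0.08.

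Cortical markers were high in some libraries of the 4-week striatum. The 7 cortical and hippocampal neuron markers summed to 16.8 to 1530 CPM in Akap11 -/- (median 732) and to 18.9 to 819 in wild type (median 25.5), with no marker at 0 in either group and none of the 7 called. The Setd1a change was -0.17 (adjusted p = 0.23) with the cortical score as a covariate and -0.13 (adjusted p = 0.454) without the libraries that stand apart. At 12 weeks the same sum was 17.2 to 22.3 CPM in Akap11 -/- and 11.2 to 17 in wild type, without overlap. No share over all genes stands beside that sum. Of the 8 striatal neuron markers, 0 were called lower at 4 weeks and 2 at 12 weeks. The part of these cells in the Setd1a values was not tested beyond this. The test of the striatal effect against that of the other 5 regions gave -0.19 ± 0.07 at 4 weeks (adjusted p = 0.153) and -0.21 ± 0.09 at 12 weeks (adjusted p = 0.311). Over the 7 genes and both ages, 0 of 14 such differences were called (background 3.31%; 2 at an unadjusted p under 0.05; 0 by DESeq2).

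**Figure D5:**
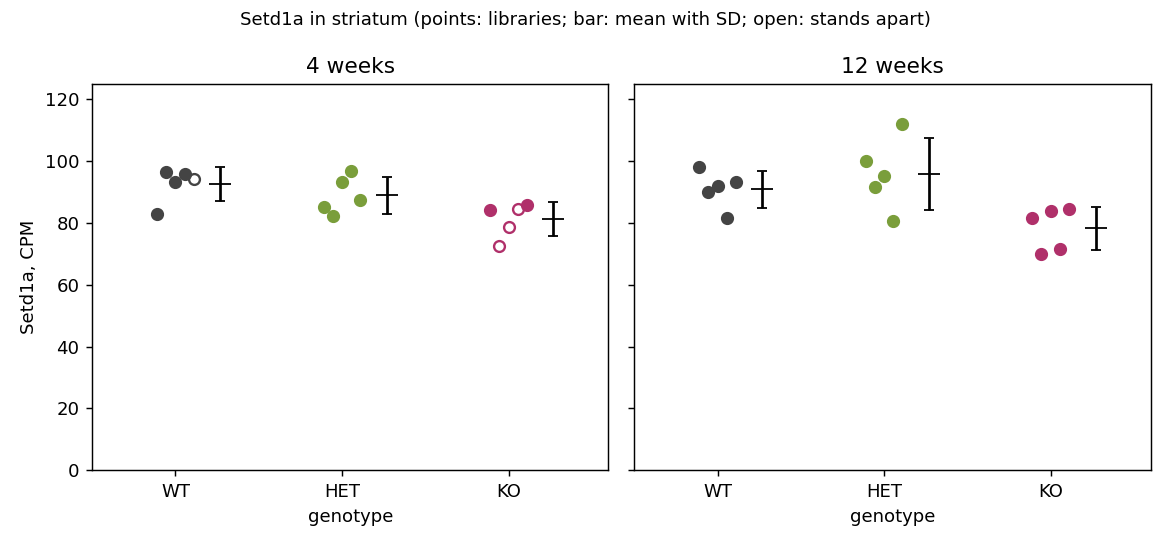
Points are striatal libraries with Setd1a in TMM-scaled CPM on the y axis by genotype and age, with group means and SD. Akap11 -/- libraries run from 72.6 to 85.8 at 4 weeks and from 70.0 to 84.5 at 12 weeks, and 1 wild-type library at each age lies within those ranges.

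The genes that work with the members were followed in 7 lists, of 93 genes in all. In Akap11 -/-, 1 of 1108 comparisons of a listed gene with wild type was called, against the 0.644% of all genes. It was Cse1l, the nuclear export receptor that recycles importin alpha, in striatum at 4 weeks (0.26 ± 0.06, adjusted p = 0.0222), and it was not called without the libraries that stand apart. At an unadjusted p under 0.05 there were 79, and DESeq2 called 6. In Akap11 +/-, 0 of 1108 were called (65 at an unadjusted p under 0.05; 8 by DESeq2). Over the mean of 6 regions, Atg2a, a lipid transfer protein of autophagy, was lower in Akap11 -/- at 4 weeks (-0.09 ± 0.03, adjusted p = 0.0451), the only call of 186, where 1.57% of all genes' mean effects were called. In Akap11 +/- the only one was Sp8, a factor of the Sp family, at 4 weeks (-1.97 ± 0.37, adjusted p = 0.00258; background 0.0621%). In 186 tests, 3 genes had a striatal effect that differed from the other 5 regions, against 3.31% of all genes' tests. They were Herc4 at 4 weeks (0.40, adjusted p = 0.0145), and the autophagy genes Atg101 (-0.29, adjusted p = 0.0225) and Pik3r4 (-0.22, adjusted p = 0.0365) at 12 weeks. The calls of Atg2a, Sp8 and Herc4 at 4 weeks are given only with the libraries that stand apart in the fit.

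Age gave more calls in these lists than genotype, as it did over all genes (20.6% of comparisons against 0.644% for Akap11 -/-). Over all of them 32 comparisons of 555 were higher at 12 weeks and 123 lower. Of all genes' comparisons, 9.21% were called higher and 11.4% lower. The median change over all genes tested, listed or not, was 0.01. The autophagy initiation genes around Rb1cc1 had 1 call higher and 32 lower of 72, with a median change of -0.13; the lower share of 44.4% compares with 11.4% of all genes. Wipi2, which binds the lipid PI3P, fell in 6 of 6 regions (-0.35 to -0.16) and Atg9a, a membrane protein of autophagic vesicles, in 6 of 6 (-0.48 to -0.18). Rb1cc1 itself had no call with age. The nuclear transport genes around Xpo7 had 4 higher and 21 lower of 90, with Ipo13, an importin, falling in 6 of 6 (-0.87 to -0.24) and Xpo6, an exportin, in 5 of 6 (-0.26 to -0.15).

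The other lists were less one-sided, and the shares over all genes to set beside them are again 9.21% higher and 11.4% lower. COMPASS genes, which encode the complex of Setd1a and its relatives, had 11 calls higher and 17 lower of 84. Dpy30, a core subunit, rose in 5 of 6 regions (0.30 to 0.53), and Setd1b, the paralog of Setd1a, fell in 5 of 6 (-0.47 to -0.21). The cullin genes had 7 higher and 17 lower of 120, with Cul9 falling in 6 of 6 regions (-0.43 to -0.17) and Cul7 in 5. The HERC and TSC genes had 4 higher and 7 lower of 42. Tsc2, a brake on mTOR signalling, fell in 5 of 6 regions (-0.23 to -0.15), and Herc6 rose in 4 of 6 (0.34 to 1.03). The Sp factors had 2 higher and 4 lower of 45, with Sp7 falling in striatum (-0.73) and substantia nigra (-1.07) and Sp9 in thalamus (-2.91). Those fits include the libraries that stand apart. Across regions of wild type, 588 of 1116 comparisons of listed genes were called, 294 in each direction, near the 54.0% of all genes. Of the 12 comparisons of each gene, the calls numbered 9 for Wdr5 and 8 for Ash2l of the COMPASS genes, 10 each for Cops5 and Btrc of the cullin genes, and 11 each for Herc6 and Tsc1. They numbered 10 for Rangap1 and 8 for Xpot of the nuclear transport genes, 11 for Sp7 and 7 for Sp2, and 9 for Pik3r4 and 8 for Atg16l1 of the autophagy genes. In striatum Sp2 was higher by a log2 change of 0.90 at 4 weeks and 0.91 at 12 weeks, and Pik3r4, a subunit of the autophagy lipid kinase, by 0.84 and 0.92, a region chosen after these values were seen.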

How the data were processed

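Expected counts per gene were deposited by the authors. The submitters' processing notes name Salmon and mm10, without a version, and the labels' protocols name a stranded mRNA kit (TruSeq) and RNA taken from frozen brain regions. The labelled regions were checked against marker lists. Depth was about 20800000 to 73300000 counts per library, and no 2 replicates agreed within sampling noise (lowest chi-square per degree of freedom 7.97 over 390 pairs). The members and lists were chosen with earlier results of these data known.

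Expected counts were rounded and tested with edgeR 4.0.16 in R 4.3.3 (TMM scaling, filterByExpr, quasi-likelihood test), with Benjamini-Hochberg adjustment over all genes of each comparison and a call at an adjusted p under 0.05. Genotypes were compared within each region and age, in 1 fit of the 3 genotypes; effects over 6 regions, regions within wild type and ages were fitted likewise. CPM levels use TMM over all libraries, and log2(CPM + 1) is used for correlations and sums of squares. The procedure was tested on simulated data. Alternatives were DESeq2 1.42.0 and its size factors, no filter on low counts, pairs of genotypes alone, a replicate block, limma 3.58.1 voom, and each library left out. Added after seeing the data were fits without 10 libraries that stand apart, and with a cortical marker covariate or without 16 libraries in which at most 5.55% of values above 0 are whole, against at least 17.3% in the others. Every member was named in each comparison; from the lists of partner genes, those called in the most comparisons were named, up to 2 per list. The separate result of 1 partner list, and its genes, are not reported here. Gene positions are from GENCODE M21 (95.5% of symbols matched).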

Additional observations from a re-analysis of the deposited data

Results flagged for a closer look

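In 17 of 252 groups of a member (6.75%, in 16 libraries), the highest or lowest library was separated from the others by a gap that is large for the range of its group; chance gives about 5%. Xpo7 and Sp4 account for 10 of them. Xpo7 was low in nigral wild-type library 92 at 4 weeks, at 34.9 CPM with the others at 77.0 to 90.8. In the 4-week thalamus, wild-type library 913 was high in Sp4 (15.6 CPM, others 10.1 to 11.9) and in Xpo7 (96.0, others 85.9 to 88.9), and its thalamic markers were low. Nigral library 44 of Akap11 -/- was low in Sp4 (7.36 CPM, others 12.0 to 12.6), and library 91 of that group was high in Cul1 (137, others 116 to 122).

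In the other cases the markers of the region did not set the library apart. Sp4 was low in prefrontal Akap11 -/- library 2 at 12 weeks (12.4 CPM, others 21.6 to 23.0) and in striatal Akap11 +/- library 3 at 12 weeks (25.9, others 29.8 to 31.1). Xpo7 was high in hippocampal Akap11 -/- library 12 at 4 weeks (98.0 CPM, others 87.8 to 90.2), somatosensory Akap11 +/- library 931 at 4 weeks (116, others 105 to 109) and striatal Akap11 -/- library 3 at 12 weeks (138, others 128 to 131). It was low in striatal Akap11 +/- library 1 at 12 weeks (120 CPM, others 135 to 138). Cul1 was high in somatosensory wild-type library 142 at 4 weeks (160 CPM, others 133 to 141) and low in striatal wild-type library 5 at 12 weeks (113, others 121 to 124). Herc1 was low in somatosensory Akap11 +/- library 5 at 12 weeks (202 CPM, others 252 to 262) and high in striatal Akap11 +/- library 11 at 4 weeks (288, others 234 to 246). Rb1cc1 was high in prefrontal Akap11 +/- library 941 at 4 weeks (113 CPM, others 86.3 to 94.3). That library and somatosensory wild-type library 142 are among the 16 libraries with few whole values (4.81% and 5.34%). Setd1a was low in striatal wild-type library 142 at 4 weeks (82.8 CPM, others 93.2 to 96.4), the library that reached into the Akap11 -/- range.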

How the results depend on the processing

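For single genes, 7946 alternative values kept the side of the threshold, and the direction where called, 103 passed it newly, 64 no longer passed and 0 reversed. The count of members called between Akap11 -/- and wild type was 0 in every alternative but the replicate block, with 1 (Setd1a in striatum at 12 weeks, adjusted p = 0.0179), and that for Akap11 +/- was 0 in every alternative but DESeq2, with 1. Libraries of the same number in wild type and Akap11 -/- at 12 weeks had correlated deviations over 0.1 in 19 of 30 pairs, not in every pair, so the block is given here alone. Each wild-type library was also matched to the 5 libraries of another genotype in its region. Of 30, 12 were most like the Akap11 -/- library of their own number, and 14 most like the Akap11 +/- one. That is a hint from the data and not from the design. With the replicate block the regional count was 34, and over all alternatives, each library left out included, it ran from 33 to 47. The cause of these shifts was not tested. Partner genes called in Akap11 -/- were 1, and 6 by DESeq2, 0 with only 2 genotypes in the fit, 0 without the libraries that stand apart and 0 with the cortical covariate. Leaving out 1 library gave 0 to 6: 6 without striatal Akap11 -/- library 12 at 4 weeks, 0 without Akap11 -/- 51 or 161 or wild type 42, 142 or 914, 2 without wild type 913, 3 without wild type 92, 3 without thalamic wild type 142 at 4 weeks and 2 without striatal wild type 3 at 12 weeks. Sp4 had the lowest count of the 7 genes, 44 in nigral wild-type library 92 at 4 weeks. That library was not the shallowest. The library with the fewest total counts, thalamic Akap11 -/- library 932 at 4 weeks, held 185 counts of Sp4. Library 92 also held the lowest counts of Xpo7 (1056), Trio (1230), Herc1 (2424) and Rb1cc1 (957). The part of depth in the low Sp4 count was not tested.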

Other observations

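The other 3 genes of the same risk set, Cacna1g, Gria3 and Grin2a, encode a calcium channel and glutamate receptor subunits and varied more between regions than the 7 genes above. In wild type, Cacna1g, a T-type channel, was higher in thalamus than in the mean of the other regions by a log2 change of 2.20 at 4 weeks and 2.79 at 12 weeks, and lower in striatum (-3.25 and -3.46). Grin2a, an NMDA receptor subunit, was higher in hippocampus (1.16 and 1.57) and lower in substantia nigra (-1.75 and -1.52). Gria3, an AMPA receptor subunit, was higher in prefrontal cortex (0.80 and 0.80) and lower in substantia nigra (-1.34 and -1.29). Cacna1g fell with age in somatosensory cortex by 0.57 (adjusted p = 3.55e-05) and in hippocampus by 1.10 (adjusted p = 0.00179) on the log2 scale. The thalamic marker score of wild-type hippocampus ran from 4.01 to 7.25 at 4 weeks (median 5.5) and from 4.03 to 5.09 at 12 weeks (median 4.29). The part of thalamic tissue in the hippocampal fall was not tested. By edgeR, 0 of 36 comparisons of these 3 genes were called in Akap11 -/- (5 at an unadjusted p under 0.05; DESeq2 0) and 0 of 36 in Akap11 +/- (7; DESeq2 1).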
